A study of Mus musculus with 10 samples.

Results

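The 10 genes described here belong to the MHC class I presentation pathway and were followed in regulatory T cells (Tregs) from tumor and lymph node (LN). They were chosen by symbol, and all 10 were found among the 21556 genes of the count table: the heavy chain genes H2-K1, H2-D1, H2-Q7 and H2-T23, the light chain gene B2m, the peptide transporter genes Tap1 and Tap2, the immunoproteasome genes Psmb8 and Psmb9, and the regulator Nlrc5. All 10 also passed the filter on low counts. The Tregs were sorted by red fluorescence (RFP) from mice that were 10 weeks old and had been injected with a lymphangiogenic mouse melanoma line. Both genotypes carry floxed MHC class II alleles: control mice (MHCIIfl/fl, Prox1CreNeg) lack the Cre, and MHCII-deleted mice (MHCIIdeltaProx-1, Prox1CrePos) carry a Cre under Prox1 control. By design MHC class II is thus lost from lymphatic endothelium, and the sorted Tregs are no target of the Cre. Neither point was tested here. There were 3 LN and 3 tumor libraries of control mice, and 2 LN and 2 tumor libraries of MHCII-deleted mice. The labels do not say which LN was taken, nor whether libraries of one group came from separate mice, so p-values measure only the spread between these libraries, which may be technical.

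MHC class I molecules show peptides from inside the cell to CD8 T cells and inhibitory receptors of NK cells. The proteasome cuts cytosolic proteins, and interferon replaces its catalytic subunits by those of the immunoproteasome. The TAP transporter carries the peptides into the endoplasmic reticulum, where they are loaded on a heavy chain paired with B2m. Nearly all nucleated cells express these genes, lymphocytes at high levels. In T cells, Nlrc5 works at class I promoters together with the RFX, CREB and NFY factors.

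Of the 10 genes, 8 lie on chromosome 17, at positions given in GRCm38 with GENCODE M21 annotation. H2-K1 (33996017 to 34000347, minus strand) and H2-D1 (35262730 to 35267499, plus strand) encode the classical heavy chains. H2-Q7 (35439155 to 35443773, plus strand) and H2-T23 (36029773 to 36032855, minus strand) encode the non-classical molecules Qa-2 and Qa-1. Psmb9 (34181987 to 34187764, minus strand), Tap1 (34187553 to 34197225), Psmb8 (34197721 to 34201454) and Tap2 (34203527 to 34216321, all plus strand) follow each other as one cluster. B2m lies on chromosome 2 (122147686 to 122153083, plus strand) and Nlrc5 on chromosome 8 (94434356 to 94527272, plus strand).

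Promoter sequence is shown for the genes with the highest levels per length and for their non-classical relative H2-Q7, because these genes moved together in the counts. Sequences were taken from RefSeq (GRCm38.p6), whose promoter windows reach from 250 bases before to 50 bases after the start; 8 of the 10 genes had such a window. Each line runs 5′ to 3′ on the strand of the gene, and capitals mark matches on either strand to a kB motif (GGG, any 2 bases, TT, any 1 base, CC), an IRF core (AA, any 2 bases, GAAA), an ISRE core (GAAA, any 2 bases, GAAA) or a CCAAT box (ATTGG). The stretches of H2-K1 (chr17:34000354-34000463, minus strand), H2-Q7 (chr17:35439017-35439124, plus strand) and B2m (chr2:122147543-122147643, plus strand) lie upstream of the RefSeq start and in no GENCODE exon. Of H2-D1, the kB motif and the IRF core are shown (chr17:35262923-35262951, plus strand). These bases lie upstream of the RefSeq start but inside the GENCODE gene. The longer H2-D1 stretch from the kB motif to the CCAAT box overlaps 1 GENCODE exon.
H2-K1: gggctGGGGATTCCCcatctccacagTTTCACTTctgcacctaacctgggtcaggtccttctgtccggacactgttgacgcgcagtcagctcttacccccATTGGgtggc
H2-Q7: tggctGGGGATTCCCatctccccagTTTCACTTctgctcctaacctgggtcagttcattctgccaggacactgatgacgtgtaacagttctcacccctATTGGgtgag
H2-D1: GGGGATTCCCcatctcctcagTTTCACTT
B2m: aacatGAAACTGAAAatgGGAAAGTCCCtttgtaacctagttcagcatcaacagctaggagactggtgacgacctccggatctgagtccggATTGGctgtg

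The H2-K1 and H2-Q7 stretches were identical at 83.6% of aligned positions, and H2-K1 and B2m at 52.2%. In H2-K1, H2-D1 and H2-Q7 the kB motif came first and the IRF core second, whereas in B2m the order was the reverse. An IRF core was found for 5 of the 8 genes (H2-K1, H2-D1, H2-Q7, H2-T23 and B2m) and in 23.9% of all 32851 promoter windows. A gene was counted where any of its windows matched, whereas the shares are per window. An ISRE core, each match of which also holds an IRF core, was in the windows of H2-T23 and B2m and in 3.44% of all windows. The kB motif was found for 4 of the 8 genes (H2-K1, H2-D1, H2-Q7 and B2m), against 4.79% of all windows. The stretches of H2-K1, H2-D1 and H2-Q7 were 83.6% to 90% identical, so their matches are not separate observations. A CCAAT box was found for 7 of the 8 genes, all but Psmb8, against 37.4% of all windows. The RefSeq starts of Psmb9 and Tap1 lie 225 bases apart on opposite strands, so their windows overlap by 275 bases and hold the same CCAAT match. A match to these letters is a description and not a binding site.

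**Figure D1:**
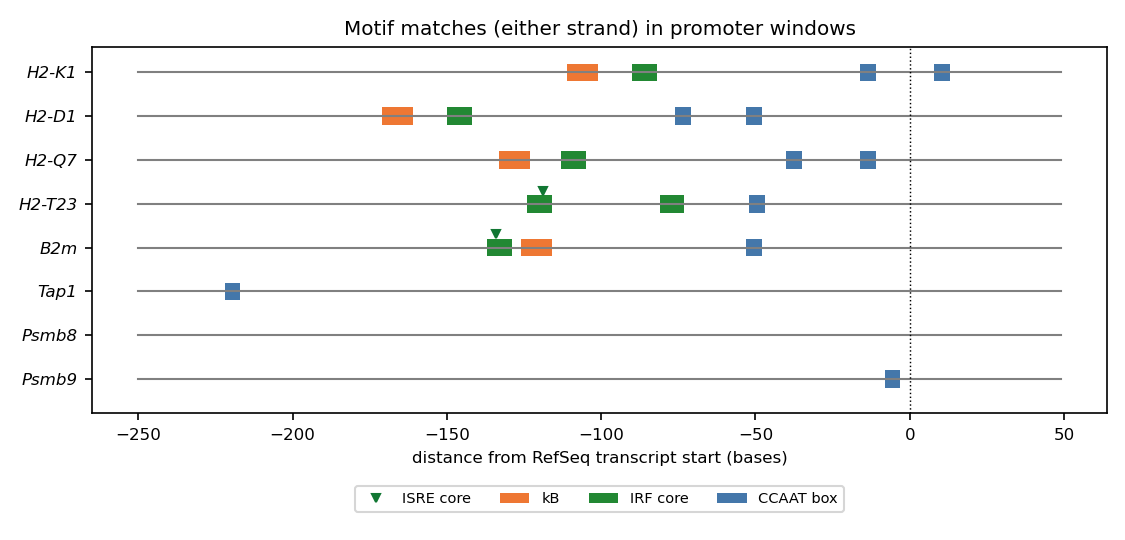
Motif matches on either strand in the promoter windows of 8 genes, by distance from the RefSeq start in bases (x axis), with 1 line per gene. Boxes are colored by motif, and a triangle marks the IRF cores that are also ISRE cores, which were in the windows of H2-T23 and B2m; the Psmb8 window had no match.

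Total counts lay between 28539329 and 35736175 per library, and 12825 to 14703 genes were detected in each. Treg identity markers (10 genes, among them Foxp3) were all detected in every group and summed to 5176 to 6679 CPM (counts relative to the library total, scaled by trimmed mean of M-values) in LN, 13055 to 14288 in tumor of control mice, and 5606 and 6351 in tumor of MHCII-deleted mice. The 24 pan-T cell genes, of which Ptprcap was at 0 in every library, summed to 17516 to 18527 CPM in LN and 16771 to 17533 in tumor of control mice, but to 7371 and 8643 in tumor of MHCII-deleted mice. The 15 melanoma markers summed to 16.4 to 34.8 CPM in LN, 4923 to 9568 in tumor of control mice, and 19554 and 23788 in tumor of MHCII-deleted mice, with 0 of the 15 at 0 in either tumor group. In tumor the 18 myeloid markers summed to 139.9 to 243 CPM with control mice and 435 and 474 with MHCII-deleted mice, with 1 of 18 at 0 in each group; Apoe made up 98.1, 101.8 and 204 CPM of the former and 395 and 437 of the latter, and of the 14 tested 1 was higher, 1 lower and 12 did not pass. Markers of CD8 T and NK cells (8 genes) summed to 41.6 to 94.0 CPM over all libraries, and those of B and plasma cells (10 genes) to 27.5 to 133. In tumor the 11 stromal and endothelial markers summed to 574, 4317 and 2643 CPM with control mice and 373 and 802 with MHCII-deleted mice. The 6 lymphatic endothelial markers reached 240.8 CPM in tumor library 2 of MHCII-deleted mice and at most 27.8 in every other library. Treg markers were thus present in all libraries, and melanoma markers were highest in tumor of MHCII-deleted mice. The part of other cells in the class I values below was not tested, and in such bulk libraries fewer cells of a type and less RNA per cell cannot be told apart.

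Class I transcripts were a large part of the RNA. The 10 genes together took 2.21% to 2.43% of all counts in the LN libraries and 2.75% to 3.05% in tumor of control mice. In tumor of MHCII-deleted mice they took 1.26% and 1.55%. Levels per kilobase use the merged length of all annotated exons of a gene, such as 860 bases for B2m and 4265 for H2-Q7. The order between genes thus depends on the annotation. Per kilobase of exon, B2m was the highest in LN of control mice at 6659 CPM per kilobase, followed by H2-D1 at 2606 and H2-K1 at 2024. Psmb8 followed at 305, and then H2-T23 at 202 and Tap2 at 198, whose ranges overlapped. H2-Q7 stood at 164, Tap1 at 130.1 and Psmb9 at 102. Nlrc5 was the lowest of the 10 at 24.1. The first 4 and the last 3 places held in all 4 groups. In tumor of control mice Psmb8 (313 CPM per kilobase), H2-T23 (272), H2-Q7 (267), Tap2 (264) and Tap1 (198.5) each overlapped with the next. In tumor of MHCII-deleted mice the neighbors from Psmb8 (159) through Tap2, H2-T23 and H2-Q7 to Tap1 (97.4) also overlapped, and in LN of MHCII-deleted mice those from Tap2 through H2-T23 to H2-Q7, and Tap1 with Psmb9.

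The tissue effect in control mice compares tumor with LN Tregs where lymphatic endothelial cells keep MHC class II. Heavy chain, light chain and transporter genes were higher in tumor, whereas the immunoproteasome genes and Nlrc5 did not pass the test. Of the 10 genes, 7 were called higher and 0 lower (edgeR quasi-likelihood, Benjamini-Hochberg adjusted p under 0.05), where 22.8% of the 13920 tested genes were called higher and 16.1% lower. The median log2 fold change of the 10 genes was 0.42, against 0.08 for all tested genes. The same 7 genes were the ones whose 3 tumor values all lay above the 3 LN values, which held for 29% of all tested genes (24% lay below without overlap). In this and the following comparisons, each log2 fold change is given with the standard error of the fit.

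H2-Q7 had the largest change. It stood at 728, 716 and 659.5 CPM in the LN libraries of control mice and at 1135, 1226 and 1058 in their tumor libraries, a log2 fold change of 0.70 ± 0.09 (edgeR, adjusted p = 0.000235). H2-D1, a classical heavy chain, went from 7131, 6629 and 6406 CPM to 9644, 10173 and 9149, a change of 0.52 ± 0.09 (edgeR, adjusted p = 0.00162). H2-K1, the other classical heavy chain, had 6089, 6211 and 5543 CPM in LN and 7992, 7622 and 7228 in tumor, with a smaller change of 0.36 ± 0.08 (edgeR, adjusted p = 0.00700). In all 3 genes the lowest tumor library lay above the highest LN library. H2-T23, whose product Qa-1 presents leader peptides of other class I molecules, stood at 598, 589 and 563 CPM in LN and 855, 728 and 771.5 in tumor (0.43 ± 0.13; edgeR, adjusted p = 0.0270). B2m had 5346, 6136 and 5698 CPM in LN and 8742, 6869 and 7401 in tumor, a change of 0.42 ± 0.11 (edgeR, adjusted p = 0.0137).

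Both transporter subunits were also higher in tumor of control mice. Tap1 rose from 766, 690.5 and 681 CPM in LN to 1322, 939 and 1000 in tumor (0.61 ± 0.18; edgeR, adjusted p = 0.0235). Tap2 rose from 711.5, 812 and 726 CPM to 1123, 904 and 970.4 (0.41 ± 0.14; edgeR, adjusted p = 0.0406). Tumor library 1 was the highest of the 3 for both genes and for B2m. When each of the 10 libraries was left out in turn, Tap2 missed the threshold in 7 of the 10 fits, H2-T23 in 5, Tap1 in 3 and B2m in 1, whereas H2-K1, H2-D1 and H2-Q7 passed in all 10. The count of 7 fell to 4 without LN library 1, 2 or 3 or tumor library 1 of control mice.

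The immunoproteasome genes, which lie beside the TAP genes, had overlapping values in both tissues of control mice. Psmb8, the catalytic subunit that takes the place of Psmb5, had 987, 1061 and 1046 CPM in LN and 1193, 929 and 1053 in tumor (0.04 ± 0.12; edgeR, adjusted p = 0.834). Psmb9, which takes the place of Psmb6, had 381.5, 361 and 381 CPM in LN and 463, 349.6 and 393 in tumor (0.10 ± 0.13; edgeR, adjusted p = 0.553). Nlrc5 had 245, 195 and 174 CPM in LN and 189.9, 215 and 173 in tumor (-0.09 ± 0.15; edgeR, adjusted p = 0.668). None of these 3 differences was larger than the spread between the libraries.

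**Figure D2:**
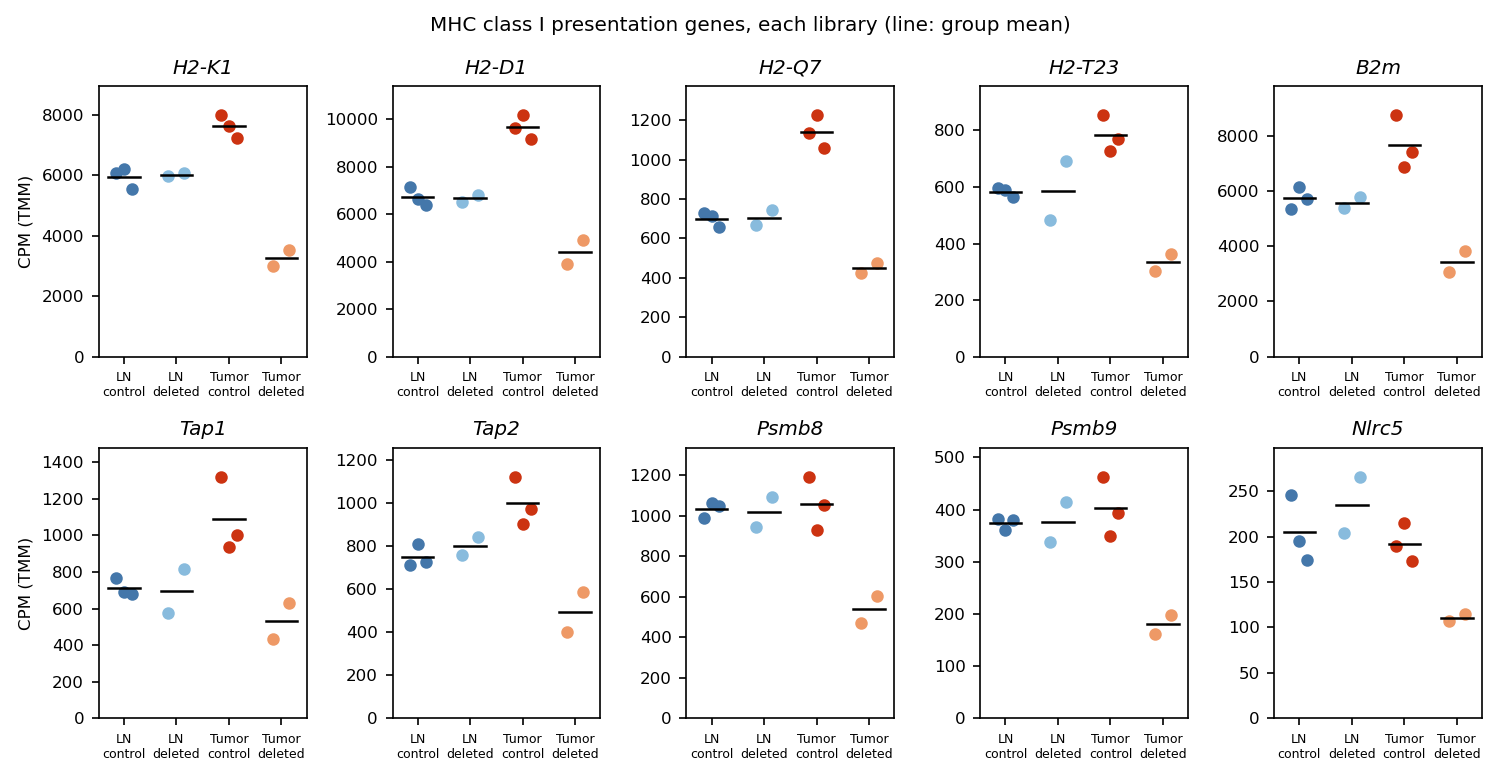
CPM (y axis, scaled by trimmed mean of M-values, starting at 0) of the 10 genes in all 10 libraries, by group (x axis); points are libraries and lines group means. Both tumor libraries of MHCII-deleted mice lie below all 3 tumor libraries of control mice in every panel, and the LN groups overlap in every panel.

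The deletion effect in tumor compares the genotypes within tumor, to learn whether tumor Tregs differ with and without MHC class II on lymphatic endothelium. Relative to all counts, all 10 class I genes were lower in both tumor libraries of MHCII-deleted mice, with log2 fold changes between -1.34 and -0.80. All 10 were called lower (edgeR, adjusted p under 0.05), where 13.7% of tested genes were called lower and 15% higher. Their median was -1.14, against 0.10 for all tested genes. The groups did not overlap for any of the 10, while 24% of tested genes had both values of MHCII-deleted mice below the 3 of control mice and 29.6% both above. These calls depend on what the libraries are scaled to, and the second scaling is given after the values.

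H2-Q7 stood at 425 and 473.5 CPM in tumor of MHCII-deleted mice, below 1058 in the lowest tumor library of control mice (-1.34 ± 0.10; edgeR, adjusted p = 0.000144). H2-K1 stood at 3006 and 3545 CPM (-1.22 ± 0.10; edgeR, adjusted p = 0.000144), and H2-D1 at 3911 and 4907 (-1.13 ± 0.11; edgeR, adjusted p = 0.000199). For all 3 heavy chains these were the lowest 2 of the 10 libraries. H2-T23 had 304 and 364 CPM (-1.23 ± 0.15; edgeR, adjusted p = 0.000515). B2m had 3076 and 3815 CPM, with a group mean of 3446 ± 523 (SD, n = 2), whereas the mean in tumor of control mice was 7671 ± 965 (SD, n = 3), and its adjusted p was 0.000332 (edgeR). The change of the light chain gene (-1.16 ± 0.13) lay within the range of the heavy chain genes.

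Tap1 had 435 and 632 CPM in tumor of MHCII-deleted mice (-1.03 ± 0.21; edgeR, adjusted p = 0.00594), and Tap2 had 399.7 and 586 (-1.02 ± 0.16; edgeR, adjusted p = 0.00177). Psmb8 had 471 and 605 CPM (-0.98 ± 0.14; edgeR, adjusted p = 0.00103), and Psmb9 had 162 and 198 (-1.16 ± 0.15; edgeR, adjusted p = 0.000601). Nlrc5 had the smallest change, with 107 and 114 CPM (-0.80 ± 0.17; edgeR, adjusted p = 0.00777), and did not pass with limma-voom (adjusted p = 0.0721). Tumor library 1 of MHCII-deleted mice was the lower one for all 10 genes.

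The second scaling sets each library to the summed counts of the 24 pan-T cell genes, so that a value is a level relative to T cell transcripts. The pan-T cell genes were themselves not constant between tissues. On this scale 4 of the 23 tested were higher and 9 lower in tumor than in LN of control mice (edgeR). With MHCII-deleted mice 5 were higher and 8 lower, and in the deletion effect in tumor 2 and 1. Over all tested genes the shares higher and lower were 23.2% and 11.7%, 63.2% and 2.45%, and 67% and 0.345%. The second scaling moved the median of all tested genes in the deletion effect in tumor from 0.10 to 1.22, and the share of higher genes among those called from 52.3% to 99.5%. On this scale 0 of the 10 class I genes passed in either direction with edgeR, and 1 of 10 (H2-Q7) had an unadjusted p under 0.05, while 67% of tested genes were called higher and 0.345% lower. The log2 fold changes lay between -0.24 for H2-Q7 (adjusted p = 0.0624) and 0.31 for Nlrc5 (adjusted p = 0.150), with a median of -0.04. The groups overlapped for 7 of the 10, H2-K1 and H2-Q7 were lower in both libraries of MHCII-deleted mice and Nlrc5 was higher in both, where 1.63% of tested genes were lower and 76.2% higher without overlap.

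On the pan-T scale H2-K1 stood at 7187, 6941 and 6795 in tumor of control mice and at 6430 and 6466 in tumor of MHCII-deleted mice. B2m stood at 7862, 6254 and 6958 and at 6580 and 6960. Psmb8 stood at 1073, 846 and 989.5 and at 1007 and 1104. The log2 fold changes of these genes were -0.11 ± 0.07, -0.05 ± 0.10 and 0.12 ± 0.12, and none of them passed. Relative to all counts, the median change of the 23 tested pan-T cell genes was -1.06, near that of the 10 class I genes. The median of the 10 lay below that of all tested genes under both scalings. A change of scaling shifts all genes by nearly the same amount, so the second scaling could not alter this.

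**Figure D3:**
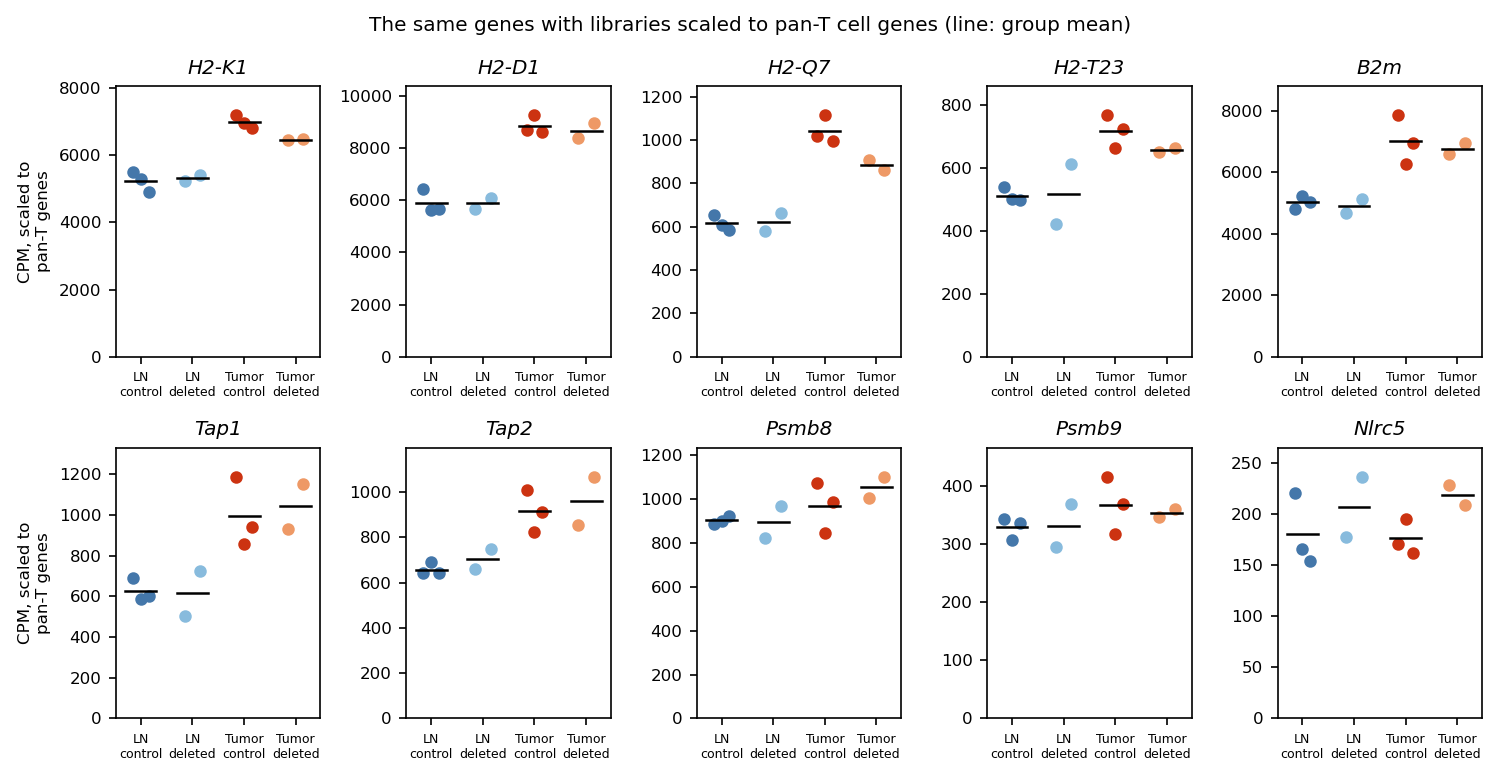
The same 10 genes with libraries scaled to the summed counts of 24 pan-T cell genes (y axis, CPM on that scale, starting at 0) by group (x axis); points are libraries and lines group means. Tumor libraries of both genotypes now overlap for 7 genes, and tumor of control mice stays above LN of control mice for 7 genes.

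The deletion effect in LN is the same contrast outside the tumor. None of the 10 genes passed (edgeR, 0 of 10, and 0 of 10 at an unadjusted p under 0.05), and DESeq2 and limma-voom also called 0 of 10. In this comparison 1.07% of tested genes were called higher and 0.0359% lower. The changes lay between -0.04 ± 0.12 for B2m and 0.20 ± 0.17 for Nlrc5, and values of the 2 genotypes overlapped for all 10 genes, while 15.4% of tested genes were higher and 11.9% lower without overlap. H2-K1 had 5980 and 6071 CPM and B2m 5367 and 5770 in LN of MHCII-deleted mice, inside the range of the control libraries. H2-T23, at 485 and 691 CPM, and Tap1, at 578 and 815, lay on either side of it. LN library 2 of MHCII-deleted mice was above library 1 for all 10 genes. Scaling to pan-T cell genes left 0 of 10 called, against 2.69% of tested genes called higher and 0.0575% lower, with changes between -0.04 and 0.20.

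The interaction tests whether the deletion effect differed between tumor and LN. It was lower in tumor for 9 of the 10 genes (edgeR, adjusted p under 0.05), where 6.57% of tested genes were called lower and 4.14% higher. The differences lay between -1.35 ± 0.14 for H2-Q7 (edgeR, adjusted p = 0.00312) and -0.96 ± 0.19 for Psmb8 (edgeR, adjusted p = 0.0144), and Tap1 missed the threshold with -0.99 ± 0.29 (edgeR, adjusted p = 0.0532). The count was 6 without LN library 2 of MHCII-deleted mice and 8 to 10 without any other single library. With libraries scaled to pan-T cell genes 0 of the 10 passed (edgeR; 0 at an unadjusted p under 0.05), with values between -0.25 and 0.14, where 45.4% of tested genes were called higher and 0.151% lower.

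The tissue effect in MHCII-deleted mice changed sign with the scaling. Relative to all counts, 9 of the 10 genes were lower in tumor than in LN and 0 higher (edgeR), where 20.1% of tested genes were called lower and 24.3% higher. The changes lay between -1.09 ± 0.19 for Nlrc5 (edgeR, adjusted p = 0.00108) and -0.38 ± 0.22 for Tap1, which did not pass (edgeR, adjusted p = 0.180). With libraries scaled to pan-T cell genes, 6 of the 10 were higher in tumor and 0 lower (edgeR), where 63.2% of tested genes were called higher and 2.45% lower. These 6 were Tap1 (0.76), H2-D1 (0.56), H2-Q7 (0.51), B2m (0.46), Tap2 (0.45) and H2-K1 (0.28), all among the 7 genes higher in tumor of control mice on that scale. H2-T23 (0.34), Psmb8 (0.24), Psmb9 (0.09) and Nlrc5 (0.08) did not pass. The count of 6 of the 10 lay near the share of all tested genes called higher. On this scale the median of the 10 was 0.40, below the 1.24 of all tested genes. Without LN library 1 of MHCII-deleted mice the count on the pan-T scale was 3. The 2 tissue effects compare different libraries but come from the same fit with a shared estimate of the spread, so their tests are not independent. Each also shares libraries with the deletion effects.

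In control mice the tissue effect was the same under both scalings. On the pan-T scale 7 of the 10 genes were higher in tumor, where 23.2% of tested genes were called higher and 11.7% lower, and these were the same 7 genes. They were also the ones without overlap, which held for 31.1% of tested genes upward and 20.7% downward. Their log2 fold changes were 0.42 ± 0.07 for H2-K1 to 0.76 ± 0.09 for H2-Q7. Psmb8 (0.10 ± 0.11), Psmb9 (0.16 ± 0.12) and Nlrc5 (-0.03 ± 0.16) again did not pass.

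**Figure D4:**
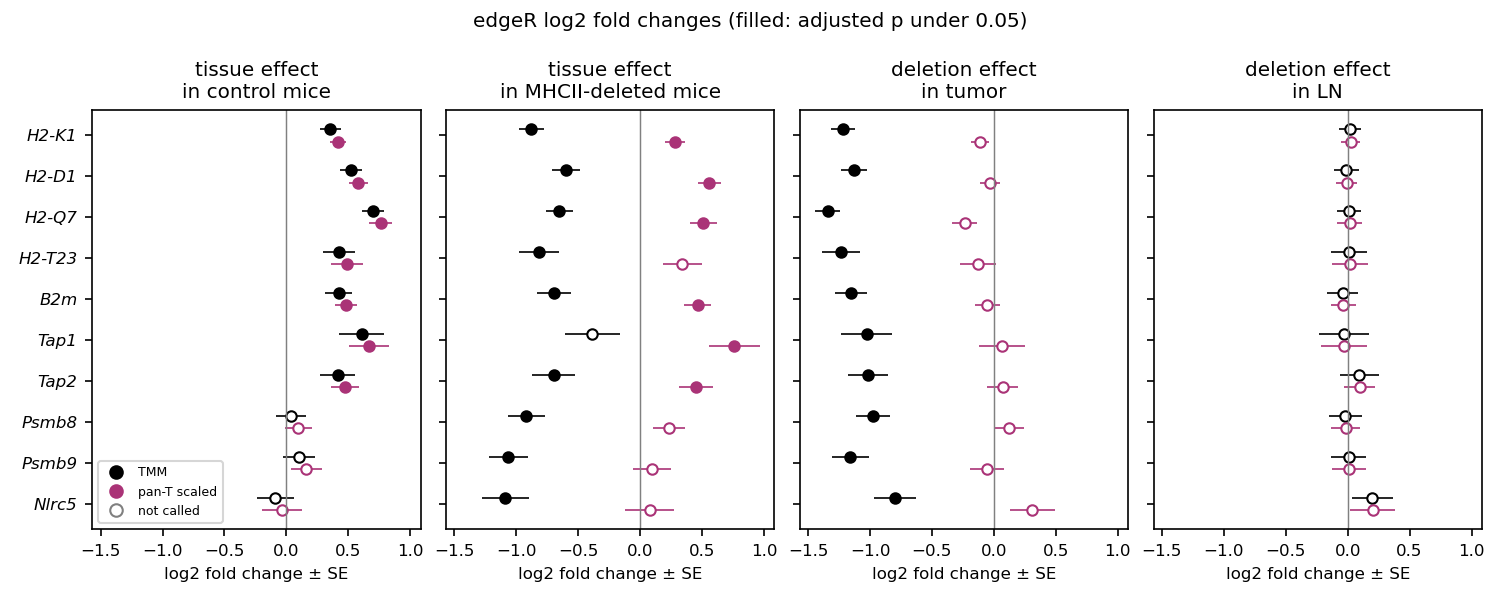
Log2 fold changes with standard errors (x axis) of the 10 genes (y axis) in 4 comparisons, relative to all counts (black) and scaled to pan-T cell genes (purple); filled points have an edgeR adjusted p under 0.05. Black and purple points lie side by side in control mice and in LN, and apart where tumor libraries of MHCII-deleted mice enter.

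The other genes of the pathway were read from lists of 17 further class I heavy chains, 15 loading and trimming genes, 6 genes of the immunoproteasome and its PA28 cap, 14 constitutive proteasome core genes, 14 transcription factors and 8 genes of interferon gamma and its receptor pathway; the last 2 lists share genes, among them Irf1. Of the 17 further heavy chains 13 were tested, and in tumor of MHCII-deleted mice 6 were lower and 1 higher (edgeR, as in what follows; 13.7% and 15% over all tested genes), with a median of -0.92. H2-Q6, a neighbor of H2-Q7, fell by 1.23 on the log2 scale, from 847, 824 and 756 CPM to 265 and 425 (adjusted p = 0.00129). H2-M3, which presents formylated peptides, changed by -0.98 ± 0.14 and H2-T22, a ligand of gamma delta T cell receptors, by -1.12 ± 0.20. The exception among the called genes was Hfe, an iron regulator with a class I fold. It rose from 4.98, 6.31 and 12.4 CPM to 28.9 and 36.7 (2.05 ± 0.43, adjusted p = 0.00707). Fcgrt also rose without overlap but missed the threshold (1.15 ± 0.40, adjusted p = 0.0536). On the pan-T scale H2-Q6 (-0.14), H2-M3 (0.12) and H2-T22 (-0.01) did not pass. There 3 of the 13 were higher and 0 lower, among them Hfe (3.14) and Fcgrt (2.24), where 67% of tested genes were higher.

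Between tumor and LN of MHCII-deleted mice, 5 of the 13 tested heavy chains were lower and 2 higher, of the loading and trimming genes 6 and 2, and of the immunoproteasome and PA28 genes 3 and 0, where 20.1% of tested genes were lower and 24.3% higher. On the pan-T scale 6 of the 13 heavy chains and 12 of the 15 loading and trimming genes were higher and 0 lower, around the 63.2% of all tested genes called higher there. In control mice 5 of the 13 tested heavy chains were higher in tumor than in LN and 0 lower (22.8% and 16.1% over all tested genes), among them Hfe (3.01 ± 0.43), Fcgrt, the neonatal Fc receptor (2.16 ± 0.38), and H2-Q6 (0.82 ± 0.16). Of loading and trimming genes 2 were higher (Sec61a1, 0.46, and Hspa5, 0.49) and 1 lower (Uggt1, -0.36). Tapbp, the tapasin that bridges TAP and the heavy chain, did not differ beyond the spread in control mice (0.11 ± 0.14; adjusted p = 0.577). It was lower in tumor of MHCII-deleted mice, with 713 and 995 CPM against 1782, 1450 and 1700 in control mice (-0.94 ± 0.16; adjusted p = 0.00268), and not on the pan-T scale (0.15; adjusted p = 0.38). In the same comparison, where 13.7% of tested genes were lower and 15% higher, 4 of the 15 loading and trimming genes were lower, among them the trimming peptidase Erap1 (-0.85 ± 0.10), and 1 was higher, the chaperone Canx (0.61 ± 0.08). With pan-T scaling 13 of the 15 were higher and 0 lower, where 67% of tested genes were higher.

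The proteasome subunits parted by kind. In tumor of MHCII-deleted mice Psmb10, which replaces Psmb7 in the immunoproteasome, fell by 0.98 on the log2 scale, from 362, 218 and 307 CPM to 127 and 172 (adjusted p = 0.00710). The PA28 subunits Psme1 (-0.96 ± 0.13) and Psme2 (-1.12 ± 0.19) also fell, while Psme3, of the nuclear PA28 form, rose (0.40 ± 0.12; adjusted p = 0.0352). The constitutive catalytic subunits did not pass: Psmb5 changed by -0.15 ± 0.12, Psmb6 by 0.18 ± 0.14 and Psmb7 by 0.18 ± 0.12. Of the 14 core genes 3 were lower (Psmb3, -0.49, Psma2, -0.41, and Psmb1, -0.40) and 0 higher, against 13.7% lower and 15% higher over all tested genes, with a median of -0.07; limma-voom called 0 of the 14 (3 at an unadjusted p under 0.05). On the pan-T scale all 14 core genes were higher, by 0.63 to 1.30, as were 67% of tested genes, and the same 3 immunoproteasome and PA28 genes did not pass. In control mice 0 of the 6 and 0 of the 14 passed between tumor and LN (edgeR; 0 and 1 at an unadjusted p under 0.05, and 0 and 0 with DESeq2 and with limma-voom). Of all tested genes, edgeR called 22.8% higher and 16.1% lower in that comparison.

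Ratios of counts within a library do not depend on the scaling. They were chosen with values in view and are given as a description. Psmb9 had 1.47 to 1.95 counts per count of Psmb6 in the 5 LN libraries, 1.52 to 1.78 in tumor of control mice, and 0.552 and 0.793 in tumor of MHCII-deleted mice. The ratio of Psmb8 to Psmb5 was 10.9 to 13.7 in LN, 9.80 to 11.9 in tumor of control mice, and 5.38 and 6.64 in tumor of MHCII-deleted mice. Psmb10 to Psmb7 stood at 3.54 to 4.51, 3.11 to 4.26, and 1.33 and 2.10 in the same order. All 3 pairs of immunoproteasome and constitutive subunits thus had their lowest ratios in both tumor libraries of MHCII-deleted mice, which also had the highest melanoma marker sums; the part of other cells in this was not tested.

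Other ratios differed between the tissues. The ratio of Tap1 to its neighbor Psmb9 was 1.71 to 2.01 in the 5 LN libraries and 2.54 to 3.19 in the 5 tumor libraries. Tap2 to Psmb8 was 0.694 to 0.801 in LN and 0.849 to 0.973 in tumor, and H2-Q7 to Psmb9 was 1.73 to 1.98 in LN and 2.39 to 3.51 in tumor. In these 3 ratios the tissues did not overlap, in either genotype; Tap2 to Psmb8 was also higher in both LN libraries of MHCII-deleted mice (0.801 and 0.772) than in the 3 of control mice (0.721, 0.765 and 0.694). The ratios of heavy chains to B2m overlapped between the tissues: H2-K1 to B2m was 0.973 to 1.14 in LN and 0.914 to 1.11 in tumor, and H2-D1 to B2m was 1.08 to 1.33 and 1.10 to 1.48. H2-Q7 to B2m was 0.116 to 0.136 in LN and 0.124 to 0.178 in tumor, and H2-T23 to B2m was 0.0904 to 0.120 and 0.0953 to 0.106.

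Among 14 transcription factors that act at class I promoters, 5 were lower and 0 higher in tumor of MHCII-deleted mice, against 13.7% of tested genes lower and 15% higher. Irf2 fell by 1.14 on the log2 scale (adjusted p = 0.000294) and Rfxank, a subunit of the RFX complex, by 0.84 (adjusted p = 0.00781). Irf1, an activator induced by interferon, stood at 218 and 392 CPM against 896, 482 and 651 in tumor of control mice (-1.15 ± 0.29; adjusted p = 0.0160). These 3 did not pass on the pan-T scale (Irf2 -0.04, Rfxank 0.29, Irf1 -0.07), and 7 of the 14 were higher, against 67% of tested genes. In control mice 2 of the 14 were higher in tumor than in LN and 3 lower, near the 22.8% and 16.1% of all tested genes, with Irf1 up (0.85 ± 0.25; adjusted p = 0.0235) and Rfx5 (-0.93 ± 0.12) and Nfyb (-0.48 ± 0.09) down. Ciita, the class II counterpart of Nlrc5, was at most 4.58 CPM in any library.

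Of the 8 genes of the interferon gamma pathway 6 were lower and 1 higher in tumor of MHCII-deleted mice, where 13.7% and 15% of all tested genes were. Ifng itself stood at 16.3 and 19.2 CPM against 56.2, 42.5 and 48.0 in tumor of control mice (-1.46 ± 0.31; adjusted p = 0.00721), and at 2.86 to 5.94 in LN. The receptor chain Ifngr1 changed by -0.93 ± 0.14 and the kinase Jak1 by -0.60 ± 0.12 (adjusted p = 0.00659). On the pan-T scale Ifng (-0.36) and Ifngr1 (0.18) did not pass, and Jak1 was called higher (0.51), below the median of 1.22 of all tested genes. There 3 of the 8 were higher and 0 lower, where 67% of tested genes were called higher and 0.345% lower. In control mice Ifng (3.43 ± 0.29) and Ifngr1 (2.70 ± 0.13) were higher in tumor than in LN. Relative to all counts, the deletion effect in LN called 0 genes in all 6 lists with edgeR, where 3 genes had an unadjusted p under 0.05; these 3 are named here after their values were seen. Rfxap, a subunit of the RFX complex, stood at 53.2 and 47.3 CPM in LN of MHCII-deleted mice and at 22.7, 22.8 and 13.7 in LN of control mice (edgeR, adjusted p = 0.0594). Jak2 stood at 80.3 and 110.3 CPM against 32.4, 36.7 and 37.5 (edgeR, adjusted p = 0.337), and the feedback inhibitor Socs1 at 145 and 123 against 55.4, 99.9 and 45.1 (edgeR, adjusted p = 0.284). DESeq2 called Rfxap only (adjusted p = 0.00194), and limma-voom called Rfxap (adjusted p = 0.00292), Jak2 (adjusted p = 0.0207) and Socs1 (adjusted p = 0.0310). With pan-T scaling edgeR called Rfxap (adjusted p = 0.0373). In all 3 genes the LN libraries of the 2 genotypes did not overlap, as for the 15.4% of all tested genes that were higher without overlap. Their unadjusted p was 0.000879 for Rfxap, 0.0177 for Socs1 and 0.02305 for Jak2 (edgeR, relative to all counts). They were picked from all genes of the 6 lists, and a part of chance in them was not tested.

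Over the 10 libraries the 10 genes varied together. Pearson's r of log2 CPM between pairs of them lay between 0.511 and 0.992, values that share library, depth and the share of T cell RNA. Among 8852 other genes of at least 10 CPM, Mdfic, Cd47, Glipr2, Fxyd5 and Pkp3 were the most like the mean of the 10, with r of 0.971 to 0.980. Cd47, the ligand of SIRP alpha, had group means of 494 and 518 CPM in LN and 616 and 323 in tumor, each with control mice first.

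Class I heavy chains are near copies of each other, and the counting may have split or dropped reads that fit several of them. Of all 50-base windows in annotated transcripts, the length of the reads, 26.5% of H2-Q7, 14.5% of H2-T23, 12.8% of H2-D1 and 9.63% of H2-K1 also occur in another gene, and 35% of H2-Q6 and 53.5% of H2-T22. How such reads were counted was not tested, and these levels are uncertain, whereas B2m shares 0 windows and Nlrc5 0.338%. Psmb8 and Tap2 share 11.9% and 11.6%, mostly with the overlapping gene models Gm20496 and Gm15821, and Psmb9 shares 4.19% with Tap1.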

How the data were processed

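Libraries were made from 10 RNA samples with SMARTer Ultra Low amplification and Nextera XT and read as single 50-base reads, per the labels' protocols. The values are gene counts as the authors deposited them, without normalization. Tools listed in the submitters' processing notes are featureCounts 1.4.6, STAR 2.4 and CASAVA 1.8.2, with the build GRCm38; the annotation release, strand setting and treatment of multimapping reads are not given in the sources used here. Symbols came from GENCODE M21, in which all gene identifiers were found.

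Genes were filtered with filterByExpr (minimum count 10), which left 13920 of 21556, and tested with edgeR 4.0.16 in R 4.3.3. The quasi-likelihood fit used 4 group means over all 10 libraries, trimmed mean of M-values scaling and Benjamini-Hochberg adjustment over all tested genes at 0.05. The standard error is the log2 fold change divided by the square root of F. The fit was tested on simulated counts with known changes in tumor of MHCII-deleted mice. It recovered 39.4% of log2 changes of 1 over all changed genes and 94.1% in genes of at least 100 CPM, with 7 false calls. All groups had the same base levels in the simulation, so it could not test the choice of scaling. Alternatives were RLE size factors, scaling to pan-T cell genes, DESeq2 1.42.0, limma-voom (limma 3.58.1) with quality weights, no filter, only the groups compared, a replicate block and leaving out each library. Pan-T scaling combined with each library left out was chosen after seeing the data.

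The 10 genes, the pathway and marker lists, the motifs and the rule for named genes were chosen with earlier results of these data known. The rule names all 10 genes, for each list the called genes with the smallest p (at most 3), and Psmb5, Psmb6, Psmb7, Psmb10, Tapbp, Irf1 and Ciita, beside 1 gene that is not reported here; Psme3, Rfxap, Jak2 and Socs1 were named after their values were seen. The 5 genes most like the 10 were taken by Pearson's r with the mean of their log2 CPM (prior count 2). Libraries of one group differed by more than sampling noise (chi-square per gene 27.7 to 146), so none was taken as a repeat deposit. Nothing in the labels ties equal replicate numbers of different groups to one mouse. Counts carry no molecular identifiers.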

Additional observations from a re-analysis of the deposited data

Results flagged for a closer look

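For 9 of the 10 class I genes the deletion effect in tumor differed from that in LN by the interaction test (edgeR quasi-likelihood, adjusted p under 0.05), relative to all counts. Over all tested genes 6.57% were called lower and 4.14% higher by it. The log2 difference, tumor minus LN, was -1.24 for H2-K1, -1.12 for H2-D1, -1.35 for H2-Q7, -1.24 for H2-T23, -1.11 for B2m, -1.11 for Tap2, -0.96 for Psmb8, -1.17 for Psmb9 and -0.997 for Nlrc5. Tap1 missed the threshold (-0.99; edgeR, adjusted p = 0.0532). The pan-T cell genes summed to 7371 and 8643 CPM in tumor of MHCII-deleted mice and 16771 to 17533 in tumor of control mice, and scaled to them 0 of the 10 genes passed. On that scale the interaction called 45.4% of tested genes higher and 0.151% lower.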

How the results depend on the processing

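Scaling to pan-T cell genes was the choice that changed the results. It took the count of class I genes lower in tumor of MHCII-deleted mice from 10 to 0, with changed signs for Tap1 (0.07), Tap2 (0.07), Psmb8 (0.12) and Nlrc5 (0.31). In the tissue effect in MHCII-deleted mice it took the count of lower genes from 9 to 0 and of higher genes from 0 to 6, and all 10 signs turned: H2-K1 0.28, H2-D1 0.56, H2-Q7 0.51, H2-T23 0.34, B2m 0.46, Tap1 0.76, Tap2 0.45, Psmb8 0.24, Psmb9 0.09 and Nlrc5 0.08. In the interaction it took 9 to 0, with changed signs for Psmb8 (0.14) and Nlrc5 (0.11). The cause was not tested. The calls in control mice (7) and in LN (0) were the same under it.

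Leaving out 1 library at a time gave 10 to 10 lower genes in the deletion effect in tumor, 0 to 0 in LN, 4 to 7 higher in the tissue effect in control mice, 8 to 10 lower in that in MHCII-deleted mice and 6 to 10 lower in the interaction. With pan-T scaling these ranges were 0 to 0, 0 to 0, 6 to 7, 3 to 7 (higher) and 0 to 0. RLE size factors and no filter changed no call of the 10 genes; limma-voom lost Nlrc5 in the deletion effect in tumor and in the interaction (-0.94; adjusted p = 0.0965), DESeq2 gained Tap1 in the interaction (-0.93; adjusted p = 0.0131), and a fit of only the groups compared lost Tap2 in the tissue effect in MHCII-deleted mice (-0.68; adjusted p = 0.0530). The labels do not tie the numbers to mice, so they are not taken as pairs. Deviations of same-numbered LN and tumor libraries of one genotype correlated at 0.020 to 0.046, and those across genotypes at -0.148 to -0.007. Libraries with different numbers were not compared, so these values cannot decide whether the numbers are pairs. An edgeR fit with the replicate block called 10, 0, 6, 9 and 9 class I genes in the order above, with Tap2 lost in control mice (0.42, adjusted p = 0.0547).

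Over all genes, 154 were called in LN between genotypes with edgeR, 23 with RLE size factors, 659 with DESeq2, 782 with limma-voom, 806 with only the LN groups and 0 with the replicate block; without single libraries the count was 0 to 611. Groups of 2 and 3 libraries limit the precision of every value.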
